A study of Homo sapiens with 18 samples.

Results

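The 10 mTOR pathway genes described here are MTOR, MLST8, RPTOR, RICTOR, DEPTOR, EIF4EBP1, EIF4EBP2, RPS6KB1, RPS6KB2 and DDIT4. They were taken by symbol from a read count table of 58815 genes, and each symbol matched 1 row. RNA was sequenced from 3 metastatic sublines of MDA-MB-231, a human triple-negative breast cancer cell line: LM2 (lung), BrM3 (brain, whose label reads BrM in the titles and BrM2 as the cell line) and BoM (bone). Every subline carried a doxycycline-inducible hairpin, either a control (shCtrl) or 1 hairpin against WDR5 (shWDR5). Doxycycline (1 ug/mL) was given for 3 days to all 6 groups, controls included. Each group had 3 cultures, taken at different passages, which gives 18 libraries. Each subline is a single derivative of 1 parental line, so a difference between sublines is a difference between those cell populations, and 1 WDR5 hairpin does not separate loss of WDR5 from other effects of that hairpin.

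mTOR is a kinase that couples nutrients, growth factors and energy to cell growth. In mTORC1 it is joined by RPTOR, the scaffold that recruits substrates, and in mTORC2 by RICTOR; MLST8 is a subunit of both complexes and DEPTOR an inhibitor bound to both. mTORC1 phosphorylates the 4E-BP proteins (EIF4EBP1, EIF4EBP2), which otherwise block the cap-binding factor eIF4E, and the S6 kinases (RPS6KB1, RPS6KB2). DDIT4, also called REDD1, is induced by hypoxia, glucocorticoids and other stresses and restrains mTORC1 through the TSC complex. Much of this control acts on proteins by phosphorylation, which read counts do not measure. WDR5, the knocked-down gene, is a scaffold of histone H3K4 methyltransferase complexes that also binds MYC.

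The libraries held between 17485841 and 119667013 counts. WDR5 fell in every line, with log2 fold changes of -2.24 for BoM, -1.97 for BrM3 and -2.43 for LM2 (SE 0.14 in each, edgeR adjusted p at or below 4.2e-07). Levels are given as CPM, read counts scaled to a common library size. The mean WDR5 level was 125 CPM in control LM2, 86.1 in control BrM3 and 89.5 in control BoM, against 23.1, 21.9 and 19.0 with shWDR5. The labelled breast epithelial origin was only partly visible: KRT8 and KRT18 had medians of 341 and 334 CPM, VIM 1780 and CD44 661. KRT19, KRT7 and EPCAM had lower medians, at 47.3, 12.9 and 6.43, and CDH1 stayed at or below 0.601. Of the hormone receptors and HER2, ESR1 stayed at or below 0.537 and PGR at or below 0.715. ERBB2, which encodes HER2, was present, with a median of 64.5 CPM (41.5 to 83.4). Leukocyte, endothelial and fibroblast markers reached at most 4.67 CPM (PECAM1), and CD3E had a median of 0.

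Promoter sequences are shown for 4 members that differed between the control lines: MTOR and RPTOR because MTOR separated every pair of lines and RPTOR separated BoM from LM2, and RICTOR and DDIT4 because they differed between lines and had, in BoM and BrM3, the most positive and the most negative log2 fold change of any member after knockdown. RefSeq promoters (build GRCh38.p14) were matched for 7 of the 10 genes; MLST8, DEPTOR and EIF4EBP1 had no entry. The 250 bases before the start of transcription are written 5′ to 3′ on the gene's own strand. Capitals mark ACGTG, a form of the core that hypoxia-inducible factors recognise, and CCAAT, the NF-Y box, on either strand. A CCAAT box on the opposite strand therefore reads ATTGG.
MTOR, chr1:11262552-11262801, minus strand: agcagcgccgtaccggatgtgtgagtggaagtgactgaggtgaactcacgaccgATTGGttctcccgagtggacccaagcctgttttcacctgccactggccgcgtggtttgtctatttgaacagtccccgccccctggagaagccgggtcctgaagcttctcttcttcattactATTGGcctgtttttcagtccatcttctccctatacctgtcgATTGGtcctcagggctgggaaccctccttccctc
RPTOR, chr17:80544588-80544837, plus strand: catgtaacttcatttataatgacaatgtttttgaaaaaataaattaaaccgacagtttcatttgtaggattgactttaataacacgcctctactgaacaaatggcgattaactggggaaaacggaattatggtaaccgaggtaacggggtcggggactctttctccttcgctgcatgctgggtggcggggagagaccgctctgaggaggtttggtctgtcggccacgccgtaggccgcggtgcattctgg
RICTOR, chr5:39074400-39074649, minus strand: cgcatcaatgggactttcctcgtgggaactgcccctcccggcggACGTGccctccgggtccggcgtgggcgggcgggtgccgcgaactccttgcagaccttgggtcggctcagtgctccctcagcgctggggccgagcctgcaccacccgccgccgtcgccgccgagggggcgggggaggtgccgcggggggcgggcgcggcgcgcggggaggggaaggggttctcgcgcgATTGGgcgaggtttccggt
DDIT4, chr10:72273674-72273923, plus strand: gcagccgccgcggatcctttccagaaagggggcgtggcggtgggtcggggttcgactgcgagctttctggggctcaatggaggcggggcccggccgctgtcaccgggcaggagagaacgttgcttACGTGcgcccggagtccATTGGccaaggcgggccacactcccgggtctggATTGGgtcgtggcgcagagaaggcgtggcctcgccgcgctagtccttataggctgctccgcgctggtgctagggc
MTOR held 3 CCAAT boxes, DDIT4 2 and RICTOR 1, whereas none of the other 4 searched promoters held one, so that RPTOR carries no capitals. At least 1 CCAAT box was present in 32.0% of 35116 RefSeq promoters of this length. ACGTG occurred once in RICTOR and once in DDIT4 and in none of the other 5, against 18.5% of all promoters. The other form of the hypoxia core, GCGTG, was not searched for and is not marked, so missing capitals do not show that a promoter lacks this core. The full E-box CACGTG, which contains ACGTG and is bound by MYC, was found in 0 of 7, against 6.34% of all promoters. GGGCGG, the GC box bound by SP1, was found in MTOR, RICTOR and EIF4EBP2, against 42.6% of all promoters.

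The members spanned a wide range of transcript levels. Per kilobase of the canonical transcript, the mean over the 9 control libraries was highest for EIF4EBP1, at 83.1 CPM per kilobase. MLST8 (21.8), DDIT4 (18.1), EIF4EBP2 (16.9), RPS6KB2 (14.5) and MTOR (14.2) formed the middle of the order on the same scale. RPS6KB1 (10.1), RPTOR (8.49) and RICTOR (5.14) were lower, and DEPTOR (0.599) was lowest. Neighbours within the middle group are not separated by these means: the 18 libraries of DDIT4 alone spanned 16.5-fold. RPS6KB1 and RPS6KB2 had the narrowest range over the 18 libraries, with 1.58-fold between their highest and lowest library.

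**Figure D1:**
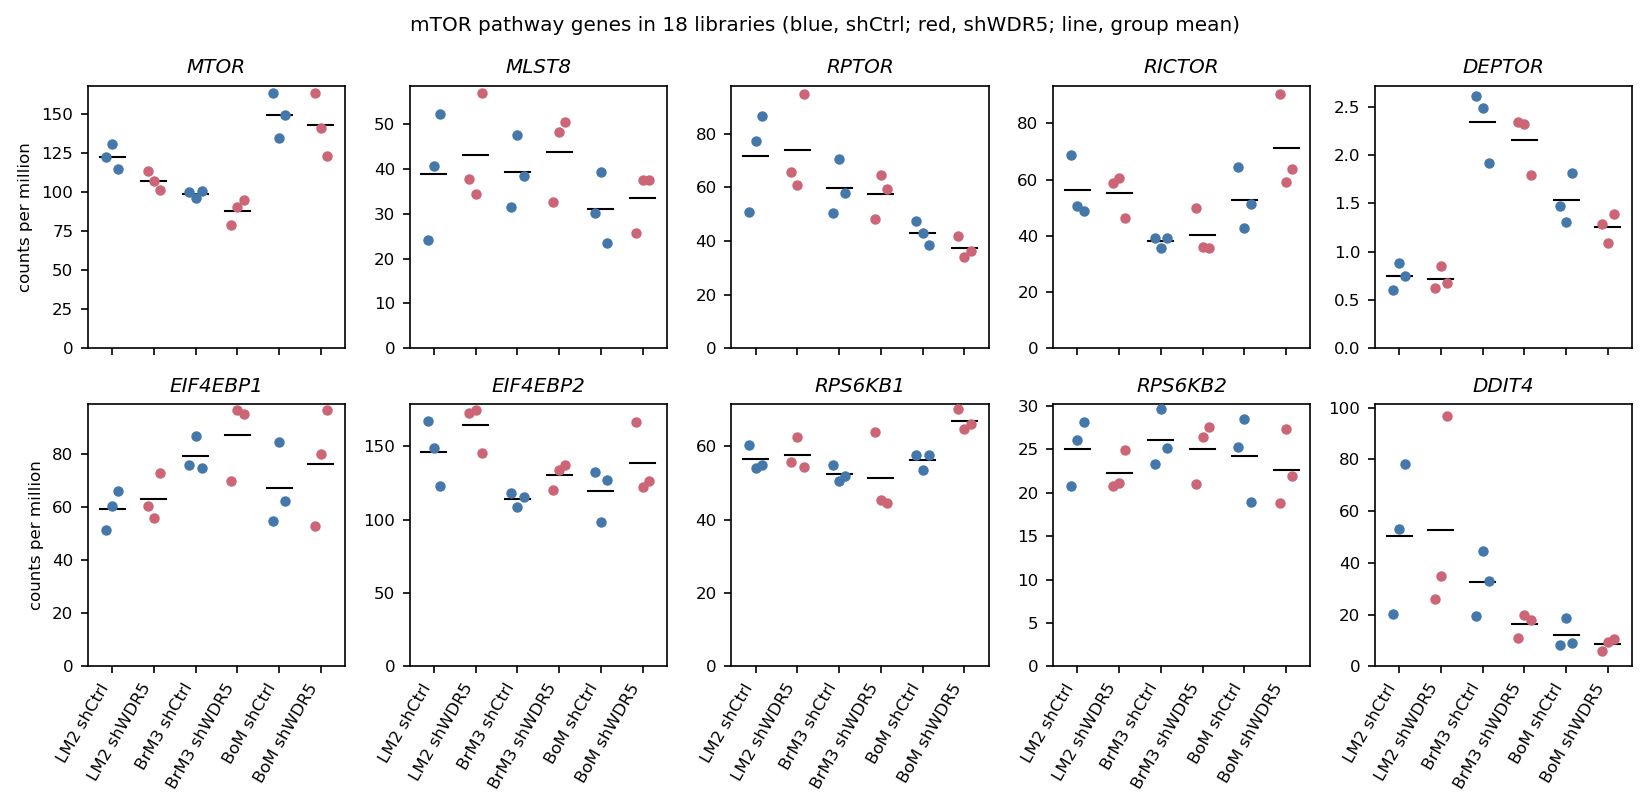
Normalised read counts, CPM (y axis, from 0, a separate scale for each gene) in each of the 18 libraries by group (x axis), with shCtrl in blue, shWDR5 in red and the group mean as a line. MTOR is highest in BoM and DDIT4 lowest there, while red and blue points of a line mostly overlap.

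The first question was whether WDR5 knockdown moved these transcripts. None of the 9 members that passed the expression filter was called in any line: 0 of 9 in LM2, where 6.26% of the 12081 genes tested were called, 0 of 9 in BrM3 (10.7%) and 0 of 9 in BoM (16.1%; edgeR quasi-likelihood test, Benjamini-Hochberg adjusted p under 0.05). At an unadjusted p under 0.05 the counts were 0, 0 and 2, beside 20.1%, 24.9% and 30.2% of all genes. DESeq2 gave the same counts for the members and also called 0 in each line. Averaged over the 3 lines, where 35.4% of all genes were called, the count was again 0 of 9, with 2 at an unadjusted p under 0.05 (44.8% of all genes); DESeq2 called 1, EIF4EBP2. The median log2 fold change of the 9 was 0.11 in BoM, -0.035 in BrM3, 0.034 in LM2 and 0.081 on average, beside medians over all genes of 0.015, -0.0054, -0.00091 and 0.0028.

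Within the kinase itself, MTOR was measured at 122, 131 and 115 CPM in LM2 shCtrl and at 113, 107 and 101 in LM2 shWDR5. In BrM3 the values were 99.9, 96.4 and 101 with shCtrl and 78.9, 90.6 and 95.1 with shWDR5. In both of these lines each knockdown library lay below each control library. In BoM the libraries overlapped, at 164, 135 and 149 with shCtrl and 164, 141 and 123 with shWDR5. The log2 fold change of MTOR was -0.06 for BoM, -0.17 for BrM3 and -0.19 for LM2 (SE 0.11 in each). Their mean was -0.14 (95% interval -0.27 to -0.012, edgeR adjusted p = 0.082), a difference that did not pass the test. Without BoM shWDR5 replicate 1 it was -0.18, with an adjusted p of 0.021, and with the GC correction it was -0.071, with an adjusted p of 0.30.

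EIF4EBP2, the second 4E-BP, gave 167, 149 and 123 CPM in LM2 shCtrl against 173, 175 and 145 in LM2 shWDR5. In BrM3 it gave 118, 108 and 116 against 120, 134 and 137, with no overlap. In BoM it gave 132, 98.6 and 127 against 167, 122 and 127. The libraries overlapped in LM2 and BoM. The log2 fold changes were 0.17, 0.19 and 0.22 (SE 0.14 in each) and averaged 0.19 (95% interval 0.025 to 0.36, adjusted p = 0.069). This mean lay close to the threshold: DESeq2 gave 0.21 with an adjusted p of 0.037, and the adjusted p ranged from 0.00032 to 0.049 over the 7 alternatives that kept all libraries. It was also under 0.05 without LM2 shCtrl replicate 1 (0.23, adjusted p = 0.033), LM2 shWDR5 replicate 3 (0.22, 0.043), BoM shCtrl replicate 1 (0.23, 0.038) or BoM shWDR5 replicate 2 (0.22, 0.048).

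EIF4EBP1, the best-known 4E-BP, gave 55.0, 84.8 and 62.3 CPM in BoM shCtrl and 52.9, 80.02 and 96.7 in BoM shWDR5, and overlapped likewise in the other lines. Its log2 fold changes were 0.18 for BoM, 0.14 for BrM3 and 0.08 for LM2 (SE 0.20 in each). The interval of its mean change, 0.14, ran from -0.11 to 0.38. MLST8, the shared subunit, lay at 0.11, 0.17 and 0.13 in the same order (SE 0.27 in each), with an interval of -0.20 to 0.47 for its mean of 0.13. For these wide intervals a p that misses the threshold does not show that the levels were alike. With a correction for the GC content of transcripts, the mean log2 fold change became 0.33 for MLST8 (adjusted p = 6.9e-05) and 0.30 for EIF4EBP1 (adjusted p = 0.0046), so that both calls depend on this choice.

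RICTOR, the mTORC2 scaffold, gave 64.4, 42.8 and 51.3 CPM in BoM shCtrl and 90.6, 59.1 and 63.7 in BoM shWDR5. The highest control library lay above the lower 2 knockdown libraries. The log2 fold change in BoM was 0.43 (SE 0.19, 95% interval 0.029 to 0.83), with an unadjusted p of 0.037 and an adjusted p of 0.14 by edgeR. With replicates blocked by number, the change was 0.42 and the adjusted p 0.010. Same-numbered BoM libraries had correlated deviations (r 0.57, 0.32 and 0.14), but the unlike pair shCtrl replicate 2 and shWDR5 replicate 3 reached 0.21. The labels state no pairing, so the blocked value rests on one that is not established. The same block raised the share of all genes called in BoM to 26.3% and the other pathway genes called from 14 to 28, and RICTOR was then the 1 member called. In LM2 and BrM3 the change of RICTOR was -0.02 and 0.08 (SE 0.19 in each).

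RPTOR, its counterpart in mTORC1, had log2 fold changes of -0.20 for BoM, -0.05 for BrM3 and 0.03 for LM2 (SE 0.20, 0.19 and 0.19), and its libraries overlapped between hairpins in each line. RPS6KB1, which encodes S6K1, gave 57.7, 53.6 and 57.7 CPM in BoM shCtrl and 70.3, 64.7 and 66.002 in BoM shWDR5. These groups did not overlap, and the log2 fold change of 0.25 (SE 0.12) had an unadjusted p of 0.044 and an adjusted p of 0.15 by edgeR. Without BrM3 shWDR5 replicate 1, a library of another line that enters through the shared spread, the change of RPS6KB1 was again 0.25 and the adjusted p 0.033. In LM2 and BrM3 it was 0.03 and -0.04 (SE 0.11 and 0.12). RPS6KB2, which encodes S6K2, lay at -0.18, -0.05 and -0.10 (SE 0.17 in each).

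DDIT4 was the most variable member. It was measured at 20.04, 53.2 and 78.1 CPM in LM2 shCtrl and at 26.1, 34.9 and 96.8 in LM2 shWDR5, so that single libraries of 1 group differed by up to 3.90-fold. In BrM3 it gave 19.6, 44.5 and 33.1 with shCtrl and 11.01, 19.8 and 17.9 with shWDR5. The highest knockdown library in BrM3 just exceeded the lowest control library. In BoM it gave 8.34, 18.6 and 9.02 with shCtrl and 5.88, 9.34 and 10.7 with shWDR5. The log2 fold change was -0.49 (SE 0.53) for BoM, -0.98 (SE 0.50) for BrM3 and 0.04 (SE 0.49) for LM2. In BrM3 its 95% interval was -2.04 to 0.08, and the adjusted p was 0.24 by edgeR. With replicates blocked by number DDIT4 was called in BrM3 (adjusted p = 0.0042), where 18.8% of all genes were. The third same-numbered BrM3 pair had an r of -0.18, so that pairing is not established. With no expression filter the BrM3 change was -0.93 and was called (adjusted p = 7.8e-08), although these libraries overlap. In that setting the smallest adjusted p of any member between control BoM and LM2 was 1.6e-42, against 0.0029 in the main fit. Whether that setting understates the spread between cultures was not tested. The mean over the lines was -0.48 (adjusted p = 0.21), and -0.74 (adjusted p = 0.033) without LM2 shWDR5 replicate 3, the library with the highest level. The standard deviation of its log2 level inside groups was 0.73, larger than in 99.0% of the genes tested, whose median was 0.17. For MTOR this value was 0.13 and for RPS6KB1 0.14, both below that median, whereas for RPS6KB2 it was 0.23, above it.

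DEPTOR was counted between 12 and 128 times per library, at 0.605 to 2.62 CPM, and did not pass the expression filter. With the edgeR filterByExpr filter instead, its log2 fold change was -0.24 for BoM, -0.10 for BrM3 and -0.03 for LM2 (SE 0.21, 0.19 and 0.22), and the smallest adjusted p of these was 0.50.

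**Figure D2:**
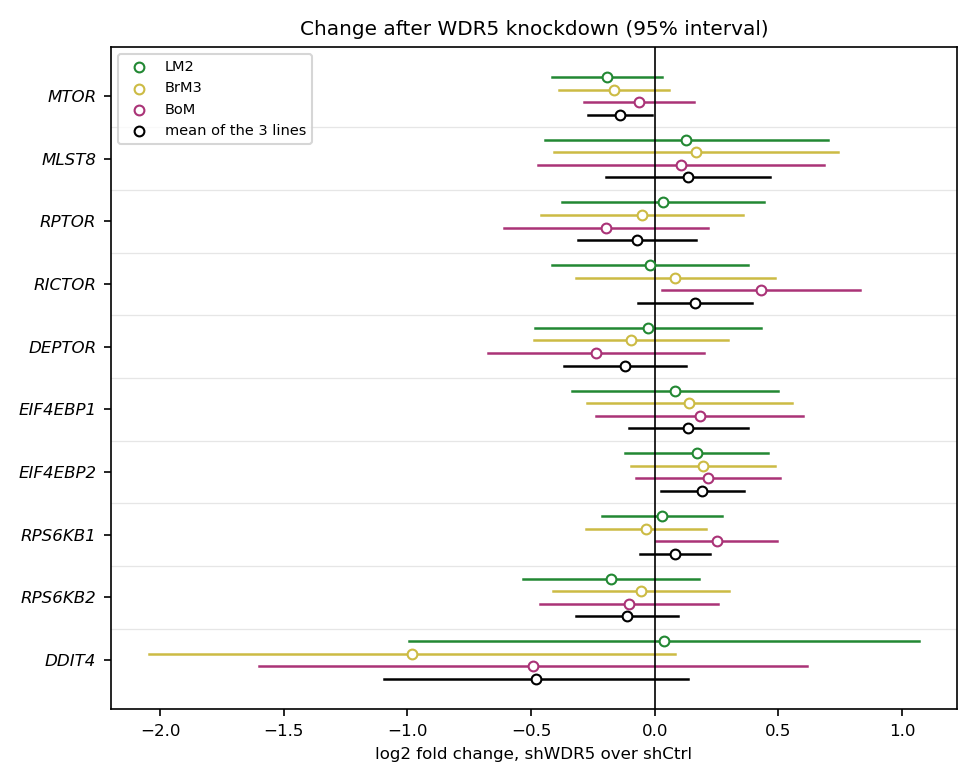
Log2 fold change of shWDR5 over shCtrl (x axis) for the 10 members (y axis) in each line and as the mean of the lines, with 95% intervals; open points have an adjusted p of 0.05 or more, and DEPTOR comes from the fit with the filterByExpr filter. All points are open; the intervals of DDIT4 are the widest and those of MTOR among the narrowest.

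The response was also compared between the lines, through the difference of the 3 knockdown effects. Between BrM3 and LM2, where 0.00828% of all genes were called, 0 of 9 members were called, and the differences ran from -1.02 (DDIT4) to 0.12. Between BoM and LM2 (0% of all genes) 0 of 9 were called, with differences from -0.53 (DDIT4) to 0.45 (RICTOR). Between BoM and BrM3 (0.00828%) 0 of 9 were called, with differences from -0.14 to 0.49 (DDIT4). No member reached an unadjusted p under 0.05 in these edgeR tests, and DESeq2 likewise called 0. The intervals were wide, reaching down to -2.49 for DDIT4 in the first of these comparisons. With no expression filter DDIT4 was called there (adjusted p = 0.011). The limit given above for the p-values of that setting applies here too, so the call is not given more weight than the miss.

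Because members of a pair share a role, the balance within 3 pairs was followed inside each library as a log2 ratio of read counts. RPTOR to RICTOR, the mTORC1 and mTORC2 scaffolds, averaged 0.33 ± 0.68 (SD, n = 3) in LM2 shCtrl and 0.40 ± 0.55 in LM2 shWDR5. In BrM3 this log2 ratio was 0.64 ± 0.32 and 0.52 ± 0.49, and in BoM -0.29 ± 0.25 and -0.91 ± 0.19. In BoM the highest knockdown library (-0.79) lay below the lowest control library (-0.45). The mean change over the lines was -0.22, with BoM at -0.62, BrM3 at -0.12 and LM2 at 0.07 (exact permutation test within lines, two-sided, p = 0.30, adjusted over 3 ratios p = 0.46). The ratio of EIF4EBP1 to EIF4EBP2 changed by -0.07 (exact permutation p = 0.73, adjusted p = 0.73). That of RPS6KB1 to RPS6KB2 changed by 0.18 (exact permutation p = 0.25, adjusted p = 0.46), with BoM at 0.34, BrM3 at 0.01 and LM2 at 0.19. The 8000 assignments allow a p as small as 0.00025. Each ratio is of counts, so transcript length and GC content differ within a pair and only its changes between groups are compared. A GC effect that varies by library would not cancel in such a change. RPTOR has a GC content of 60.05% and RICTOR 36.5%, and no ratio was tested with the GC correction.

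**Figure D3:**
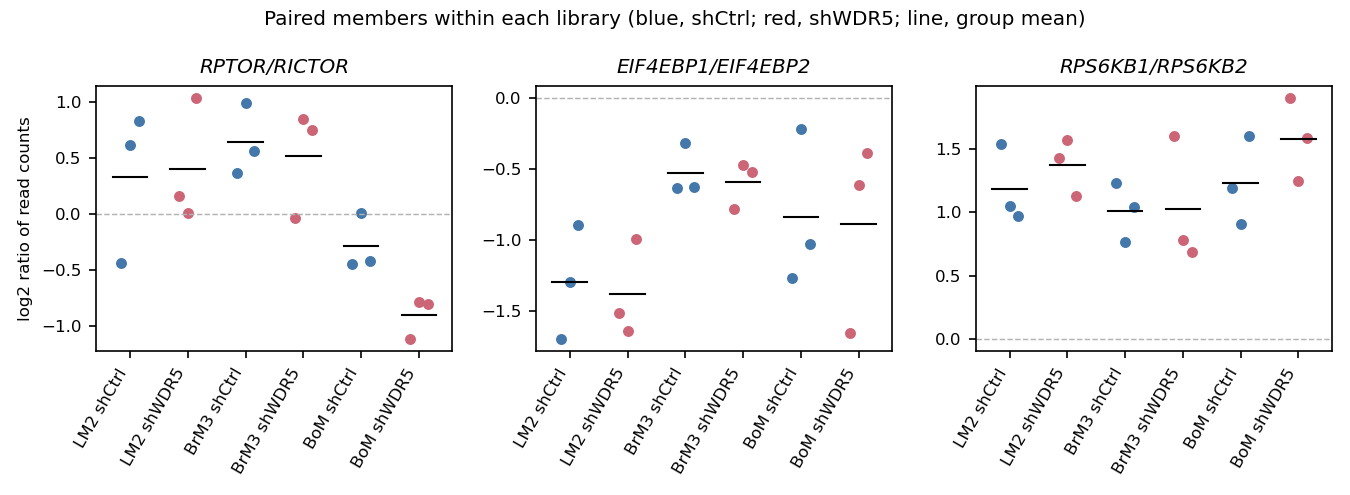
Log2 ratio of read counts of paired members (y axis) in each library by group (x axis), with shCtrl in blue, shWDR5 in red and the group mean as a line. The RPTOR to RICTOR ratio is lowest in BoM shWDR5 (-1.12 to -0.79), and the other pairs overlap between hairpins in every line.

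The control libraries allowed the lines themselves to be compared. MTOR was called between every pair of control lines: it was 1.51-fold higher in BoM than in BrM3 (95% interval 1.29 to 1.76, adjusted p = 0.00031). It was 1.22-fold higher in BoM than in LM2 (1.04 to 1.42, adjusted p = 0.033), and BrM3 lay at 0.806 of LM2 (0.691 to 0.940, adjusted p = 0.022). The control libraries of the 3 lines did not overlap. The group means were 149 ± 14.6 CPM in BoM, 123 ± 7.93 in LM2 and 99.0 ± 2.33 in BrM3 (SD, n = 3). The shWDR5 libraries, which are separate cultures, held the same order of means, at 143, 107 and 88.2. The call against BrM3 held when any single library was left out, whereas the smaller differences from LM2 rested on single libraries: BoM over LM2 lost its call in 4 of 18 such fits, without LM2 shCtrl replicate 1 or 3 (adjusted p 0.063 and 0.12) or BoM shCtrl replicate 1 or 3 (0.17 and 0.070). BrM3 over LM2 lost it in 3 of 18, without LM2 shCtrl replicate 2 (0.089) or BrM3 shCtrl replicate 1 or 2 (0.050 and 0.069). Both were also lost with no expression filter (0.095 and 0.0995), and BoM over LM2 with BrM3 left out of the fit (0.055).

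DDIT4 differed most in size. Control BoM lay at 0.238 of control LM2 (95% interval 0.112 to 0.506, adjusted p = 0.0029) and at 0.373 of control BrM3 (0.177 to 0.787, adjusted p = 0.037). The highest BoM control library, at 18.6 CPM, was below the lowest libraries of LM2 (20.04) and BrM3 (19.6). BrM3 and LM2 overlapped, with a log2 difference of -0.65 (SE 0.49, adjusted p = 0.29). The difference from LM2 was called without any single library, with log2 values between -2.55 and -1.61, whereas the difference from BrM3 lost its call in 4 of 18 fits, without BrM3 shCtrl replicate 2 or 3 (adjusted p 0.14 and 0.073) or BoM shCtrl replicate 1 or 3 (0.13 and 0.12). With shWDR5 the mean levels were 8.64 CPM for BoM, 16.2 for BrM3 and 52.6 for LM2.

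RPTOR gave 50.7, 77.4 and 86.8 CPM in control LM2, 50.5, 70.7 and 57.7 in control BrM3, and 47.3, 42.9 and 38.3 in control BoM. All BoM libraries lay below those of both other lines. The log2 difference of BoM from LM2 was -0.74 (SE 0.19, adjusted p = 0.0042) and from BrM3 -0.48 (SE 0.19, adjusted p = 0.064). The latter passed without LM2 shCtrl replicate 1 (adjusted p 0.030), LM2 shWDR5 replicate 3 (0.039) or BrM3 shCtrl replicate 1 (0.047). RICTOR, at 68.9, 50.7 and 49.0 in control LM2 and 39.2, 35.6 and 39.1 in control BrM3, was lower in BrM3 by a log2 difference of -0.56 (SE 0.19, adjusted p = 0.022). It was higher in BoM than in BrM3 by 0.48 (SE 0.19), which did not pass the test (adjusted p = 0.057) but did without LM2 shCtrl replicate 1 (0.041), BrM3 shWDR5 replicate 1 (0.043), BoM shCtrl replicate 2 (0.028) or BoM shWDR5 replicate 1 (0.035). The difference of RICTOR between BrM3 and LM2 lost its call without LM2 shCtrl replicate 1 (-0.39, adjusted p = 0.11) or BrM3 shCtrl replicate 2 (-0.52, 0.070). EIF4EBP2 was lower in control BrM3 than in control LM2 by -0.36 (SE 0.14, adjusted p = 0.041), and lost this call without LM2 shCtrl replicate 1 or 2 (adjusted p 0.17 and 0.094) or any 1 BrM3 shCtrl library (0.065, 0.12 and 0.082). Its difference between BoM and LM2 was -0.29 (SE 0.14, adjusted p = 0.085), and passed without LM2 shCtrl replicate 3 (0.029) or BoM shCtrl replicate 1 (0.044).

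By comparison, 3 of 9 members were called between control BrM3 and LM2, where 47.6% of all genes were called, 3 of 9 between BoM and LM2 (51.8%), and 2 of 9 between BoM and BrM3 (37.6%). The 3 comparisons share control libraries. MLST8, RPS6KB1, RPS6KB2 and EIF4EBP1 were called in none of them in the main edgeR fit. EIF4EBP1 was highest in BrM3, with a log2 difference from LM2 of 0.41 (SE 0.20, edgeR adjusted p = 0.093). That difference was called with no expression filter, the replicate block, the GC correction or only the lines compared, and without BoM shWDR5 replicate 1. EIF4EBP1 between BoM and LM2, and RPS6KB1 between BrM3 and LM2, were called with the GC correction. With the GC correction 6, 5 and 3 members were called, where 59.1%, 61.7% and 47.7% of all genes were.

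DEPTOR, below the filter, differed between all 3 control lines in the fit with filterByExpr. Control BrM3 gave 2.62, 2.49 and 1.91 CPM, control BoM 1.47, 1.31 and 1.81, and control LM2 0.605, 0.882 and 0.750. The 3 lines did not overlap. BrM3 was 3.09-fold above LM2 (log2 1.63, SE 0.19, adjusted p = 1.5e-06), BoM was 1.97-fold above LM2 (adjusted p = 0.00072), and BoM lay at 0.636 of BrM3 (adjusted p = 0.015). The levels in control LM2 rest on 16 to 92 counts per library.

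**Figure D4:**
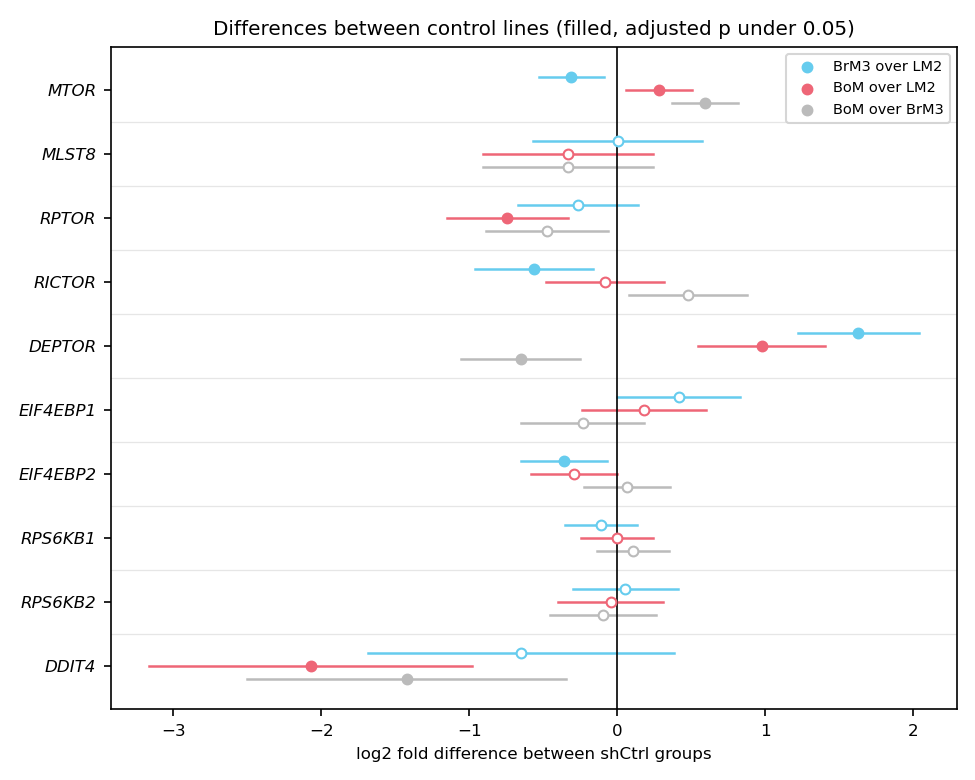
Log2 fold difference between shCtrl groups (x axis) for the 10 members (y axis), with 95% intervals; filled points have an adjusted p under 0.05, and DEPTOR comes from the fit with the filterByExpr filter. MTOR and DEPTOR are filled in every comparison, and DDIT4 lies farthest from 0, at -2.07 for BoM over LM2.

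The members also varied together across libraries. After each line's mean was removed, RPTOR and MLST8 had a Pearson r of 0.70 over the 18 libraries, RPTOR and DDIT4 0.73, and MLST8 and EIF4EBP1 0.81. RICTOR and RPS6KB1 had an r of 0.79 and RICTOR and EIF4EBP2 0.71. Between these groups the sign was negative, at -0.76 for RICTOR and DDIT4 and -0.75 for EIF4EBP2 and DDIT4. The points are libraries that share lines and hairpins and differ in sequencing depth, so the values are descriptive. Transcript GC content moved with this division: it was 64.5% for MLST8, 62.9% for EIF4EBP1, 60.05% for RPTOR, 59.7% for DDIT4 and 57.9% for RPS6KB2, against 36.5% for RICTOR, 38.2% for RPS6KB1 and 44.7% for EIF4EBP2, and its part in the correlations was not tested. MTOR, at 52.0% GC, had an r between -0.57 and 0.24 with the other members.

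Among 11719 genes with a symbol, those most like each member over the 18 libraries were ZFYVE26 (r 0.94) and NOTCH2 (0.92) for MTOR, and ZMIZ1 (0.95) and PLEKHM2 (0.93) for RPTOR. PTAR1 and UBR3 (0.96 each) were most like RICTOR, and CTU2 (0.99) and BOP1 (0.98) most like MLST8. PHPT1 (0.97) and C19orf53 (0.96) were most like EIF4EBP1, and PAK2 (0.96) and TACC1 (0.95) most like EIF4EBP2. SLC25A36 (0.95) and MAP4K5 (0.94) were most like RPS6KB1, and ECSIT (0.92) and PACSIN3 (0.91) most like RPS6KB2. CTSD, the lysosomal protease cathepsin D, and MTLN (0.98 and 0.97) were most like DDIT4.

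The rest of the pathway was followed in 7 lists of 121 genes, of which 110 passed the filter. In LM2, 6 of them rose and 3 fell after WDR5 knockdown (8.18% of the lists), in BrM3 7 rose and 3 fell (9.09%), and in BoM 9 rose and 5 fell (12.7%), shares near those of all genes. Averaged over the lines 24 rose and 16 fell (36.4%, against 35.4% of all genes). Over all genes falls outnumbered rises: 179 rose and 577 fell in LM2, and 347 rose and 951 fell in BrM3. In BoM 653 rose and 1293 fell, and on average 1880 rose and 2400 fell. In the lists rises outnumbered falls, and this balance of directions was not tested. The median log2 fold change over the lists was 0.059 for BoM, 0.052 for BrM3, 0.046 for LM2 and 0.067 on average.

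Translation effectors downstream of mTORC1 held 9 of 16 genes called on average, 6 higher and 3 lower (56.25%, against 35.4% of all genes). EIF4G3, an eIF4G scaffold of the cap-binding complex, fell in each line: in LM2 its mean went from 166 ± 3.55 to 100.5 ± 3.20 CPM, while BrM3 went from 125 ± 4.70 to 75.3 ± 4.87 and BoM from 169 ± 8.93 to 119 ± 14.8 (SD, n = 3). In that order its log2 fold changes were -0.72, -0.73 and -0.51 (SE 0.09 in each, edgeR adjusted p at or below 0.00076), and each call was kept in all 26 alternative fits. EIF4G2, an eIF4G relative that lacks the eIF4E-binding region, rose in each line, with log2 fold changes of 0.35, 0.32 and 0.43 (SE 0.09 in each, adjusted p 0.036, 0.035 and 0.0047). Its level rose from 1417 ± 164 to 1801 ± 12.6 in LM2 and from 1714 ± 200 to 2315 ± 94.8 in BoM. The call of EIF4G2 in BoM was kept in all 26 alternative fits. Its call in LM2 was lost in 8, among them those without LM2 shCtrl replicate 2 or 3, any LM2 shWDR5 library or BrM3 shCtrl replicate 1 (log2 0.28 to 0.35). Its call in BrM3 was lost in 4, without BrM3 shCtrl replicate 1 or 2 or BrM3 shWDR5 replicate 2 or 3 (0.28 to 0.32). The others called on average were EIF4A1, EIF4A2, EIF4B, EIF4H and POLDIP3 (higher) and EEF2 and RPS6 (lower), named after their values were seen.

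In the list of autophagy, lysosome and mTORC2 effectors 2 of 10 genes were called on average (20%, against 35.4% of all genes). SGK1, an mTORC2 target, was higher, and ULK2 was lower. ULK2, a paralog of the ULK1 kinase that starts autophagy, fell in each line, and its mean in LM2 went from 9.78 ± 1.39 to 5.92 ± 0.920 CPM, while BrM3 went from 4.89 ± 0.198 to 1.88 ± 0.124 and BoM from 5.42 ± 0.987 to 2.49 ± 0.430. The log2 fold changes in that order were -0.70, -1.39 and -1.12 (SE 0.16, 0.18 and 0.17, adjusted p 0.013, 0.00014 and 0.00035). The call in LM2 was lost without LM2 shWDR5 replicate 1 (-0.66, adjusted p = 0.067) and with the other lines left out of the fit (-0.69).

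Amino acid sensing genes were called in both directions, 4 higher and 5 lower of 29 on average (31.0%, against 35.4% of all genes). RRAGD, a Rag GTPase that brings mTORC1 to the lysosome, fell in BrM3 by 0.40 (SE 0.12, adjusted p = 0.043) and in BoM by 0.63 (SE 0.12, adjusted p = 0.0021), and in LM2 had a log2 fold change of 0.08 (SE 0.11). Its call in BrM3 was lost in 13 of 26 alternative fits, 10 of which left out 1 library: BrM3 shCtrl replicate 1, 2 or 3, BrM3 shWDR5 replicate 2 or 3, LM2 shCtrl replicate 2, LM2 shWDR5 replicate 1 or 2, or BoM shCtrl replicate 1 or 3 (log2 -0.43 to -0.34). The call in BoM was lost with the other lines left out of the fit (-0.62). The other 4 that fell on average were RRAGA, RRAGB, LAMTOR2 and SLC38A9, which act with RRAGD on the lysosomal surface, and SEH1L, ITFG2, SESN2 and SESN3 rose. In the TSC-RHEB and energy stress list 3 rose (PRKAG1, RHEB, PRKAB2) and 2 fell (PRKAA2, RHEBL1) of 13 on average. That share was 38.5%, against 35.4% of all genes.

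Growth factor and PI3K-AKT inputs had 5 genes higher, among them GRB10 and PHLPP1, and 1 lower (INSR) of 17 on average. Their share called was 35.3%, against 35.4% of all genes, and their median log2 fold change was 0.14. Of the 6 tested partners of the complexes, TTI2 alone was called on average (16.7%), and was lower. Genes induced by the same kinds of stress as DDIT4 gave 5 higher and 3 lower of 19 on average (42.1%, against 35.4% of all genes). The higher were DDIT3, ADM, SLC7A11, BNIP3 and ATF4, and the lower were CA9, CDKN1A and FKBP5. Of all 110 listed genes tested, CA9 had the most negative mean change among those called on average, but it was called in no single line. DDIT3, which encodes the stress factor CHOP, rose in LM2 by a log2 fold change of 0.82 (SE 0.16, adjusted p = 0.0040) and in BoM by 0.61 (SE 0.16, adjusted p = 0.013), with 0.49 (SE 0.16, adjusted p = 0.052) in BrM3. The call of DDIT3 in BoM was lost without BoM shWDR5 replicate 3, where the value was 0.35, and with the other lines left out of the fit (0.62). ADM, a hypoxia-induced peptide gene, rose in BrM3 by 0.68 (SE 0.16, adjusted p = 0.013), and this call was lost without BrM3 shCtrl replicate 1 (0.58) or 3 (0.62) or BrM3 shWDR5 replicate 3 (0.64). DDIT4 itself had a log2 fold change of -0.98 in BrM3, opposite in sign to ADM, and did not pass the test.

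**Figure D5:**
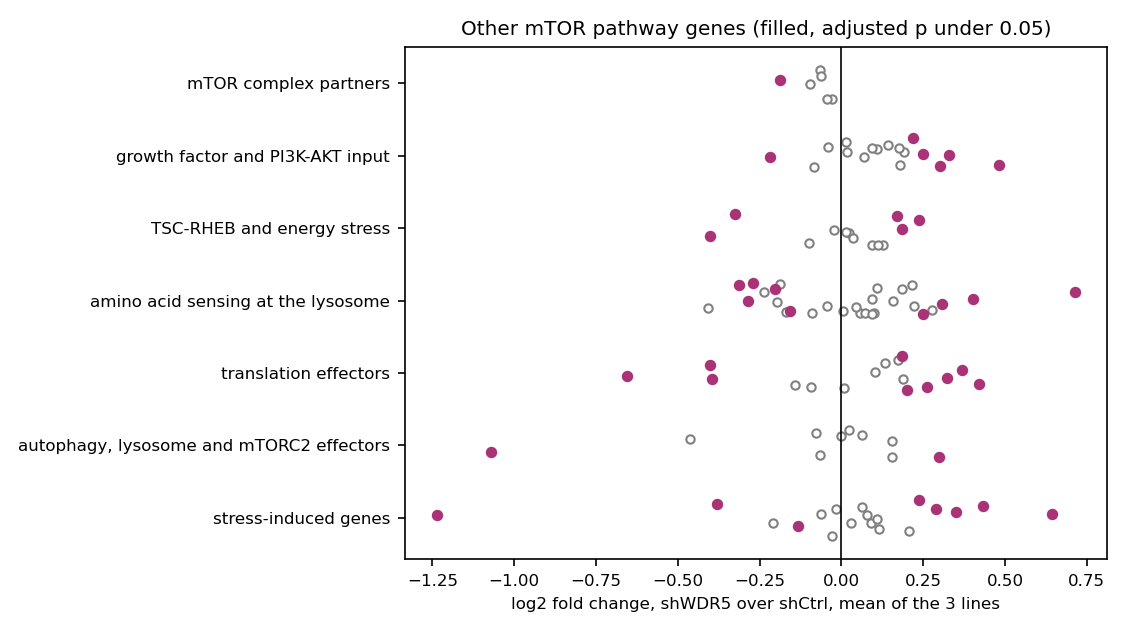
Mean log2 fold change over the 3 lines, shWDR5 over shCtrl (x axis), of 110 other mTOR pathway genes in 7 lists (y axis); filled points have an adjusted p under 0.05. The list of mTOR complex partners stays close to 0 with 1 filled point, and ULK2 lies far to the left of its list at -1.07.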

How the data were processed

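Total RNA of the 18 libraries was made into stranded, poly(A)-selected paired-end libraries. The authors aligned reads to hg38 with STAR 2.7.0 and deposited counts per gene; a second deposited table held only the authors' own fold changes and adjusted p-values and was not used. Count columns named by line and hairpin were matched to titles, and the column code of the remaining hairpin was taken as shCtrl. Source labels that named another metastatic site than the title were not used. No count column was left unmapped, and the table held 0 spike-in rows.

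Counts were scaled with TMM and fitted with the quasi-likelihood test of edgeR 4.0.16 in R 4.3.3, with 6 groups in 1 model. Genes were kept when the highest scaled count passed 146, the threshold found by the HTSFilter criterion, leaving 12081 genes. P-values were Benjamini-Hochberg adjusted over those genes, and genes under 0.05 were called. CPM values use TMM-scaled library sizes, and levels per kilobase use canonical transcripts of GENCODE v44, which with its GC content may differ from the annotation the authors counted on. Ratios added 0.5 counts and were tested by exact permutation (SciPy 1.17.1). Intervals cover the spread between cultures.

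The members and lists were chosen with earlier results of these data known. Named genes were the 10 members, WDR5, listed pathway genes called in the same direction in all 3 lines, the 3 with the smallest adjusted p in each line, and for each tested member the 2 genes of most similar pattern. Other genes named in small counts were named after their values were seen. PER1 was not analysed here. In BoM the deviations of same-numbered libraries from their group means had r of 0.57, 0.32 and 0.14. Those of shCtrl replicate 2 and shWDR5 replicate 3 had an r of 0.21. The labels do not say that a number marks a shared passage. Alternatives were another filter, no filter, DESeq2 size factors, DESeq2 1.42.0, a replicate block, a GC correction, both together, only the lines compared, and leaving out each library. For WDR5 and the named pathway genes these were added after seeing the data.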

Additional observations from a re-analysis of the deposited data

How the results depend on the processing

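Of the 846 fits without 1 library, over 47 member values, 786 kept direction and side of the threshold, 18 lost a call, 16 gained one and 26 changed sign. All sign changes were in values that had not been called. The members called after knockdown numbered 0 in each line and on average as reported, and the following settings changed this. The replicate block gave 1 in BrM3 (DDIT4, -0.97, adjusted p = 0.0042), 1 in BoM (RICTOR) and 4 on average (EIF4EBP2, RICTOR, DDIT4 and MTOR, the last at -0.14 with an adjusted p of 0.029), where 18.8%, 26.3% and 46.9% of all genes were called. The GC correction gave 1 in BrM3, 2 in BoM and 3 on average (24.3%, 28.2% and 51.2% of all genes). Both together gave 2 in LM2, 4 in BrM3, 5 in BoM and 5 on average (28.5%, 37.0%, 39.8% and 60.3%). Without an expression filter 1 was called in BrM3, 2 in BoM, 2 on average and 1 (DDIT4) in the difference between BrM3 and LM2. In that setting 3.67%, 5.66%, 13.8% and 0.0388% of all genes were called. On average 1 was called with filterByExpr, 1 with DESeq2 size factors and 1 with DESeq2 (31.9%, 36.6% and 39.4% of all genes). Without 1 library the counts were 0 to 1 in BoM and 0 to 2 on average. The cause of these shifts was not tested.

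Other pathway genes called were 9 in LM2, 10 in BrM3, 14 in BoM and 40 on average. The replicate block gave 16, 20 and 28 in the lines, where 11.9%, 18.8% and 26.3% of all genes were called. The GC correction gave 23, 35, 34 and 73 (16.3%, 24.3%, 28.2% and 51.2% of all genes). With the block it gave 34, 50, 51 and 78 (28.5%, 37.0%, 39.8% and 60.3%). With the lines compared only, 2 were called in LM2 and 6 in BoM (2.4% and 7.46% of all genes). With DESeq2 14 were called in LM2 and 17 in BrM3 (9.45% and 14.6%). Without 1 library the counts ran from 3 to 11 in LM2, 3 to 14 in BrM3 and 9 to 17 in BoM. Between control BrM3 and LM2, 5 members were called with no filter, 5 with the block, 6 with the GC correction and 7 with both. In these settings 19.2%, 57.8%, 59.1% and 67.4% of all genes were called. Without 1 library the members called were 0 to 4. Between control BoM and LM2, 5 were called with the GC correction and 6 with both (61.7% and 69.2% of all genes). Between control BoM and BrM3, 5 were called with no filter, 4 with the block, 4 with both corrections and 4 with DESeq2. In these settings 13.7%, 49%, 57.3% and 41% of all genes were called. Without 1 library the members called were 1 to 4.

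Some knockdown values, none of them called, changed sign. With the GC correction alone and with the block, MTOR in BoM was 0.042 and 0.038. RPTOR was 0.11 and 0.11 in BrM3, 0.013 and 0.010 in BoM, and 0.076 and 0.075 on average. RPS6KB2 was 0.077 and 0.075 in BrM3, 0.081 and 0.080 in BoM, and 0.015 and 0.015 on average. RICTOR in LM2 was 0.022 and 0.017, 0.014 with filterByExpr and 0.0031 with no filter. RPS6KB1 in BrM3 was 0.013 with filterByExpr and 0.0077 with no filter. Without 1 library the values that crossed 0 ranged as follows. MTOR ran from -0.17 to 0.031 in BoM. RPTOR ran from -0.18 to 0.20 in LM2 and -0.16 to 0.089 in BrM3, and RICTOR from -0.11 to 0.15 and -0.090 to 0.17. MLST8 ran from -0.12 to 0.40 in LM2 and -0.054 to 0.32 in BoM, and EIF4EBP1 from -0.031 to 0.17 and -0.022 to 0.39. RPS6KB1 ran from -0.035 to 0.080 in LM2 and -0.22 to 0.059 in BrM3. RPS6KB2 ran from -0.13 to 0.051 in BrM3 and -0.26 to 0.027 in BoM, and DDIT4 from -0.73 to 0.50 in LM2. The change of the EIF4EBP1 to EIF4EBP2 ratio ran from -0.15 to 0.062. In LM2 and BrM3 the replicate numbers were not taken to pair the libraries, since 1 same-numbered pair in each had a correlation of deviations under 0.1 (0.025 and -0.18), although same-numbered pairs averaged 0.36 and other pairs -0.19. Deviations are taken from group means, so these averages are tied to each other. The numbers did not establish pairs in BoM either, where an unlike pair had an r of 0.21. Over all lines 7 of 9 same-numbered pairs were over 0.1.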
